A study of Mus musculus with 8 samples.

Results

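The semaphorins, plexins, ephrins, Eph receptors, slits, Robo receptors, netrins and Unc5 receptors were first described as cues and receptors that steer growing axons. They were measured here in the lung of mice kept in hypoxia or normoxia. Genes were taken by symbol alone, that is every Sema, Plxn, Epha, Ephb, Efna, Efnb, Slit, Robo, Ntn or Unc5 gene of the array whose family name is followed by a number or a letter. This gave 69 of the 25428 genes measured, of which 37 encode ligands and 31 encode receptors. The remaining one, *Unc50*, shares only the spelling of its symbol with the *Unc5* receptors and is described apart from them. Another 8 genes with the same opening letters, such as the Slitrk genes, were not taken. The label holds for the array in that each of the 10 families was represented, but 21 of the 69 genes lay under the median level of all probe sets and may carry little signal in lung.

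The RNA came from 1 lung lobe of each of 8 Nfat5fl/fl mice, 4 of which (mice A, B, C and D) had spent 7 days at 10% oxygen, while the other 4 (mice F, G, H and I) breathed normal air. All 8 mice carry loxP-flanked *Nfat5*, the gene of a transcription factor that responds to osmotic and biomechanical stress. By the study's methods the mice also descend from a line with a tamoxifen-inducible Cre driven by the smooth muscle myosin heavy chain promoter, and the controls received the solvent in place of tamoxifen, so that *Nfat5* was left intact. Both groups are therefore controls with respect to genotype, and 10% oxygen is the single difference that the labels give between them. Each value is a log2 intensity of a whole lobe, in which fewer cells of a type and less RNA per cell cannot be told apart. The general endothelial markers and the alveolar type 2 markers lay well above the median level of all probe sets in all 8 lobes, with mean log2 intensities of 8.83 to 9.09 in hypoxia and 8.50 to 8.93 in normoxia for endothelium, and of 10.65 to 10.99 in hypoxia and 10.37 to 10.86 in normoxia for type 2 cells.

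These families work as short-range or secreted cues. Semaphorins bind plexins, with neuropilins as co-receptors for most secreted class 3 members, and usually make the cell withdraw its protrusions by switching off R-Ras and remodelling actin. Ephrins are themselves anchored in the membrane and signal into both cells of a contact: ephrin-B2 marks arterial and EphB4 venous endothelium, and the pair keeps both vessel types apart. Slits bind the receptors Robo1 and Robo2, and secreted netrins bind Dcc, neogenin and Unc5 receptors. In vessels, Unc5b restrains sprouting and Robo4 stabilises the endothelial barrier, and Sema3c, Sema3e and plexin D1 guide growing vessels. Which of these genes differ in RNA level between hypoxic and normoxic lungs was the question put to the array.

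The promoters of 4 genes are shown, because these genes carry the contrasts described below: a receptor, a secreted ligand and an Eph receptor whose hypoxic and normoxic lungs did not overlap, and the ephrin with a lower mean in hypoxia. Each run is the 250 bases before the RefSeq start on assembly GRCm38.p6, written 5′ to 3′ on the strand of the gene. Capitals mark the letters ACGTG or GCGTG, the core to which hypoxia-inducible factors bind, on either strand.
*Unc5b* (chr10:60831582-60831831, minus strand): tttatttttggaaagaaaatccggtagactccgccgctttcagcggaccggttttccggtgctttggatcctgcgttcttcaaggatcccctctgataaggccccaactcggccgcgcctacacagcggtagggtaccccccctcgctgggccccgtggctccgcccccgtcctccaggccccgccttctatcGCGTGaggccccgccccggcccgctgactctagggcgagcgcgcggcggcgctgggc
*Slit2* (chr5:47982905-47983154, plus strand): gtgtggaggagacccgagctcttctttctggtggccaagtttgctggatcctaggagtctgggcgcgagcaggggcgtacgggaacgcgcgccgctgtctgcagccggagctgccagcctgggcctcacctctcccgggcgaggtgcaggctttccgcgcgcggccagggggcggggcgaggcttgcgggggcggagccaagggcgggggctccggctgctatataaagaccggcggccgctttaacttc
*Epha4* (chr1:77515089-77515338, minus strand): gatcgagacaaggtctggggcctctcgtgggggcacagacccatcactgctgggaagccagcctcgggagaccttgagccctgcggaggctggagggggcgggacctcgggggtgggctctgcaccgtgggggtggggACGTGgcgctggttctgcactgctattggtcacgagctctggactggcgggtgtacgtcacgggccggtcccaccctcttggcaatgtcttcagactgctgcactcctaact
*Efnb2* (chr8:8661243-8661492, minus strand): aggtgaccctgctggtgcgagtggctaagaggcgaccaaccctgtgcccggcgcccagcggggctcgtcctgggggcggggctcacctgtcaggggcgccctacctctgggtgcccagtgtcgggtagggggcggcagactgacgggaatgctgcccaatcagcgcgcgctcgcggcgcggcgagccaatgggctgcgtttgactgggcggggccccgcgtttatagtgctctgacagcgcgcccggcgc
*Unc5b* and *Epha4* have 1 match each and *Slit2* and *Efnb2* none in this window. The motif is frequent: 38.6% of the 32851 promoter windows of this length hold it. RefSeq windows were found for 60 of the 69 genes, and 29 of these (48.3%) had a match in at least one window, against 41.5% of all 27025 genes with windows. Of the genes described below as higher in hypoxia, 7 of the 14 with a window had one. A match is a description of the letters and shows no binding.

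Across the 69 genes the differences leaned towards hypoxia. The mean was higher in hypoxic than in normoxic lungs in 51 genes and lower in 18, and the median log2 difference was 0.18, against -0.0049 over all probe sets, of which 49.1% had a higher mean in hypoxia. No gene passed the threshold of 0.05 after adjustment over all probe sets (limma, Benjamini-Hochberg), neither among the 69 (smallest adjusted p = 0.169, *Unc5b*) nor on the whole array (0.0% of the probe sets, smallest adjusted p = 0.0551). At an unadjusted p under 0.05, 16 of the 69 genes (23.2%) were higher in hypoxia, where 5.34% of all probe sets were, and 3 (4.3%) were lower, where 3.15% were. The unmoderated test of the study's methods gave 12 and 3, where 4.99% and 2.89% of all probe sets were higher and lower. At or above the median level of all probe sets lay 48 of the 69 genes. In the limma fit 15 of these (31.2%) were higher and 2 (4.2%) lower, beside 8.1% and 4.0% of all probe sets at that level. All calls named below are limma calls at an unadjusted p under 0.05. Counts of calls by family or marker list are to be read beside the shares of 5.34% higher and 3.15% lower. Differences are given on the log2 scale as hypoxia minus normoxia with limma's standard error (SE).

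Single mice moved these counts. Without hypoxic mouse C the number of higher genes was 9 and without normoxic mouse I it was also 9, with 4.44% and 3.41% of all probe sets called higher in the same fits. All 4 hypoxic lungs lay above all 4 normoxic lungs in 5 genes, *Unc5b*, *Sema6b*, *Sema3f*, *Slit2* and *Epha4*, beside 3.01% of all probe sets. The reverse held for 3 genes, *Unc50*, *Epha6* and *Ntng1*, beside 1.61% of all probe sets. With fewer mice, groups part more easily, so counts with a mouse left out stand beside the share of all probe sets in the same comparison. The genes wholly above numbered 20 without hypoxic mouse D (6.98% of all probe sets) and 8 without hypoxic mouse A (4.99%). They numbered 9 without normoxic mouse F (4.36%), 8 without mouse G (4.86%) and 10 without mouse H (6.05%). The count hardly moved without normoxic mouse I, at 5 (3.43%), and without hypoxic mice B and C, at 5 (3.25%) and 6 (4.6%). Of the 19 calls, 10 were made in each of the 8 fits that left out 1 mouse, namely *Sema6b*, *Sema3f*, *Sema7a*, *Sema5a*, *Slit2*, *Robo2*, *Epha4* and *Unc5b*, all higher, and *Epha6* and *Unc50*, both lower. The other 9 were lost in at least one of these fits.

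**Figure D1:**
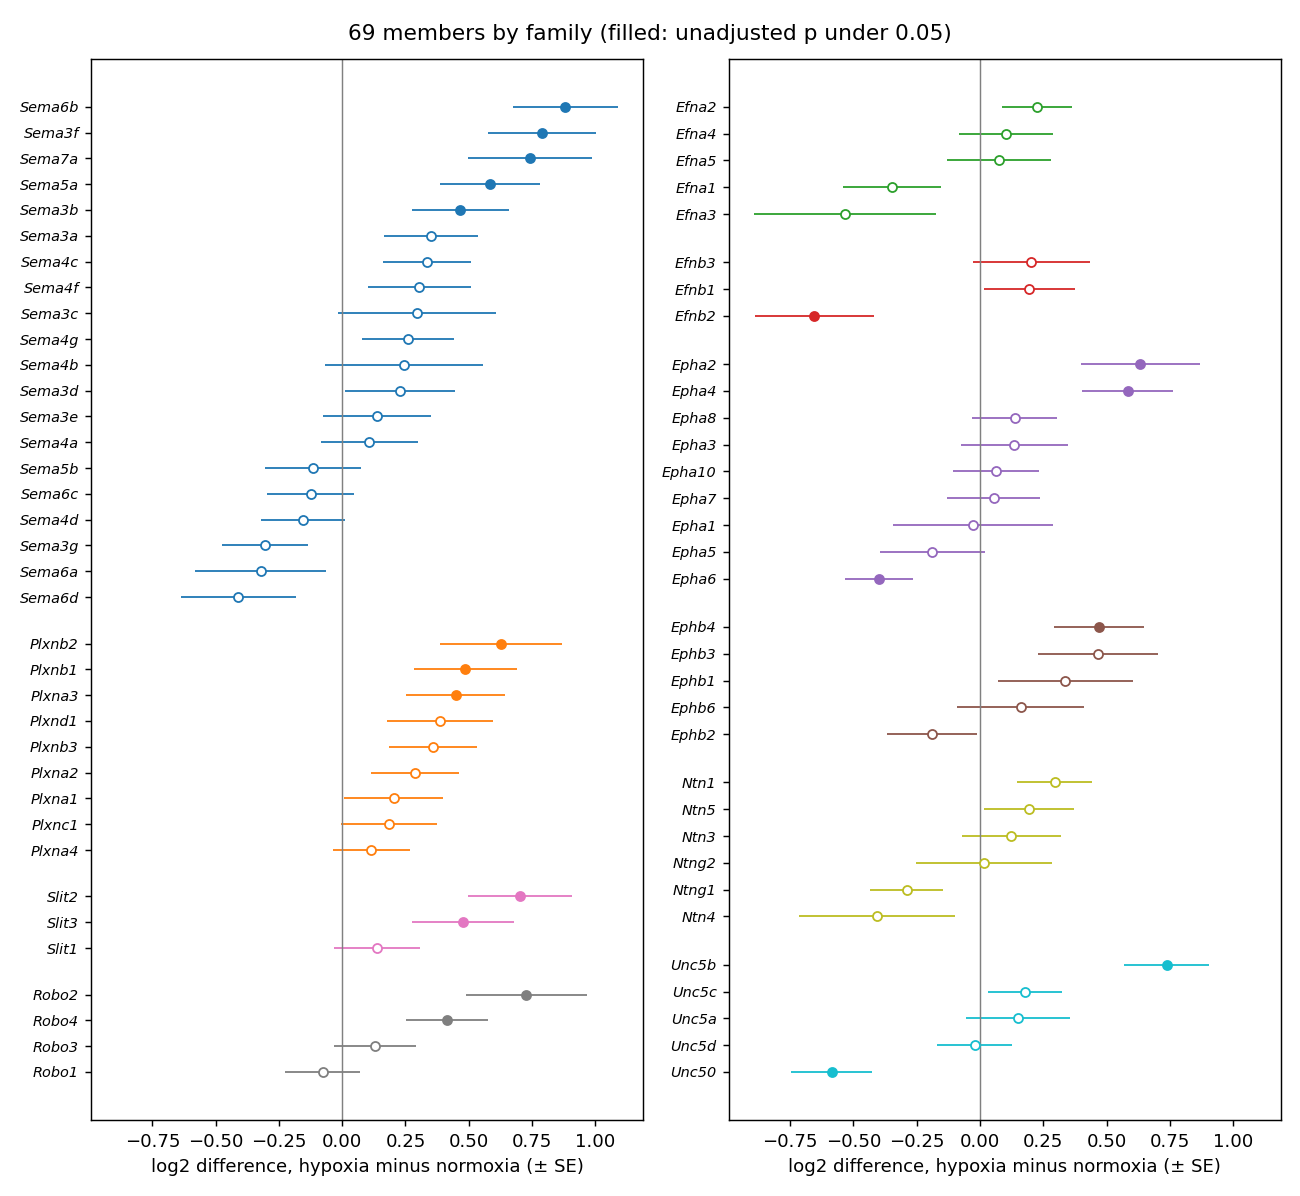
Log2 difference (x axis, hypoxia minus normoxia, ± SE from limma, 4 mice per group) of each of the 69 genes (y axis), grouped and coloured by family and sorted within it. Filled circles mark the 19 genes at an unadjusted p under 0.05, all 9 plexins lie right of 0, and *Unc50* is drawn below the *Unc5* genes although it only shares their spelling.

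Among the 20 semaphorins, the ligands of the plexins, 5 (25.0%) were higher in hypoxia and 0 lower, beside 5.34% and 3.15% of all probe sets. Their median difference was 0.25. The largest difference of all 69 genes belonged to *Sema6b*, which encodes a transmembrane semaphorin that binds A-type plexins. Its log2 intensity was 6.04, 6.41, 5.88 and 5.69 in hypoxic mice A to D, against 4.94, 5.49, 4.79 and 5.27 in normoxic mice F to I. All hypoxic lungs lay above all normoxic lungs, with the smallest gap between mice D and G. The difference was 0.88 (SE 0.21, adjusted p = 0.176, limma), a fold of 1.84.

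*Sema3f*, which encodes a secreted ligand of neuropilin-2 that repels endothelial and lymphatic cells, had 9.14, 9.02, 9.17 and 8.62 in hypoxia and 8.38, 8.53, 8.22 and 7.65 in normoxia. Again the groups did not overlap, and mouse D was the lowest of its group, as was mouse I of the normoxic group. Its difference was 0.79 (SE 0.21, adjusted p = 0.256, limma). *Sema7a*, a membrane-anchored semaphorin that binds integrin beta 1 and plexin C1, averaged 7.38 ± 0.24 in hypoxia and 6.64 ± 0.52 in normoxia (SD, n = 4 each), a difference of 0.74 (SE 0.25). Here normoxic mouse F, at 7.09, lay above hypoxic mouse D, at 7.05, and mouse I at 5.88 lay far below the other 3 normoxic lungs. Without mouse I the difference was 0.49.

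*Sema5a*, which encodes a transmembrane semaphorin with thrombospondin repeats, averaged 5.91 ± 0.27 in hypoxia and 5.33 ± 0.31 in normoxia, a difference of 0.58 (SE 0.20). *Sema3b*, a secreted relative of *Sema3f*, averaged 6.75 ± 0.27 in hypoxia and 6.28 ± 0.29 in normoxia, a difference of 0.47 (SE 0.19), and was called in 3 of 8 fits with a mouse left out. The groups overlapped in both genes. Of the 7 class 3 semaphorins, 6 had a higher mean in hypoxia and the exception was *Sema3g*, an arterial endothelial gene, at 7.04 ± 0.16 in hypoxia and 7.34 ± 0.26 in normoxia. None of the 6 class 4 semaphorins was called, and their differences ran from -0.16 to 0.34. Class 6 was mixed: *Sema6b* stood alone, while *Sema6a*, *Sema6c* and *Sema6d* had lower means, with differences of -0.32, -0.12 and -0.41 that were not called.

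The vessel-guiding ligands *Sema3c* and *Sema3e* did not separate the groups. *Sema3c* had 8.20, 8.80, 8.85 and 9.22 in hypoxia and 7.73, 8.94, 8.12 and 9.10 in normoxia. Both groups spread over more than 1 log2 unit, and normoxic mice G and I lay among the hypoxic lungs. The difference of 0.30 (SE 0.31) had a 95% confidence interval of -0.39 to 0.98, so a difference in either direction could be hidden in the spread. It was 0.05 without normoxic mouse F and 0.50 without normoxic mouse I, the ends of the range with 1 mouse left out. *Sema3e*, the ligand that binds plexin D1 without a neuropilin, differed by 0.14 (SE 0.21), with a 95% confidence interval of -0.33 to 0.61, and the difference was 0.01 without hypoxic mouse D, 0.31 without normoxic mouse G and 0.0015 with array weights.

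All 9 plexins had a higher mean in hypoxia, with differences of 0.12 to 0.63 and a median of 0.36. Of them 3 were called higher, beside 5.34% of all probe sets. Plexins are the receptors that carry the semaphorin signal into the cell through a GTPase-activating domain. *Plxnb2*, a receptor of class 4 semaphorins, had 9.32, 9.23, 9.38 and 8.70 in hypoxia and 8.92, 8.82, 8.49 and 7.89 in normoxia. Mouse D lay inside the normoxic range and the other 3 hypoxic lungs lay above it. The difference was 0.63 (SE 0.24, adjusted p = 0.477, limma), and the call was lost without any 1 of the mice A, B, C and I. Without mouse I the difference was 0.42. *Plxnb1*, the receptor of Sema4d, averaged 7.00 ± 0.38 in hypoxia and 6.52 ± 0.21 in normoxia, a difference of 0.49 (SE 0.20), while its ligand *Sema4d* averaged 5.06 ± 0.17 in hypoxia and 5.21 ± 0.24 in normoxia. *Plxna3*, a receptor of class 3 semaphorins, lay low on the array at 4.09 ± 0.15 in hypoxia and 3.64 ± 0.37 in normoxia, a difference of 0.45 (SE 0.19). Both of these calls held in only 2 of 8 fits that left out a mouse.

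Plexin D1, the endothelial receptor of Sema3e and, with neuropilins, of Sema3c, was not called. *Plxnd1* had 8.12, 8.21, 7.99 and 7.51 in hypoxia and 7.86, 7.84, 7.23 and 7.33 in normoxia. Mice A, B and C lay above all normoxic lungs and mouse D between them. The difference of 0.39 (SE 0.21, adjusted p = 0.671, limma) had a 95% confidence interval of -0.07 to 0.85. The groups overlapped too in *Plxna1*, *Plxna2*, *Plxna4*, *Plxnb3* and *Plxnc1*, at differences of 0.12 to 0.36.

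**Figure D2:**
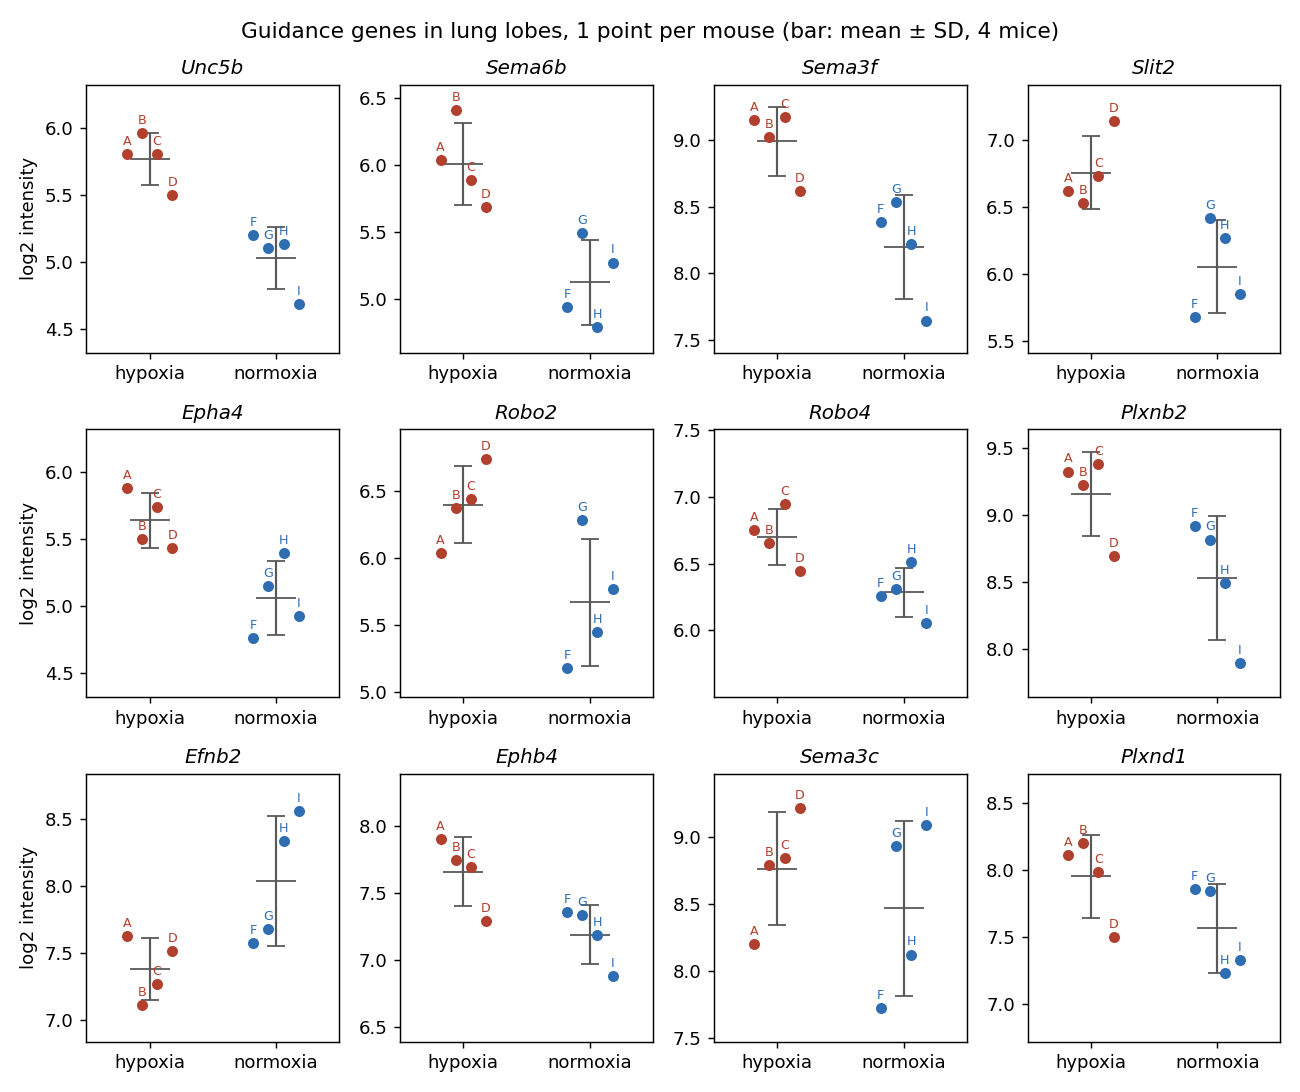
Log2 intensity (y axis, each panel spans 2 log2 units) of 12 genes, 1 point per mouse with its letter, hypoxia in red on the left and normoxia in blue on the right, bars showing the mean ± SD of 4 mice. The groups do not overlap in the first 5 panels; in *Efnb2* the hypoxic mean of 7.38 lies below the normoxic mean of 8.03, and in *Sema3c* the groups share their range.

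Slits are large secreted ligands, and 2 of the 3 were higher in hypoxia, beside 5.34% of all probe sets. *Slit2* had 6.62, 6.53, 6.73 and 7.15 in hypoxia and 5.68, 6.42, 6.27 and 5.85 in normoxia. The groups did not overlap, although only 0.11 parted hypoxic mouse B from normoxic mouse G. Mouse D, the lowest hypoxic lung in *Sema6b*, *Sema3f* and *Sema7a*, was the highest of all 8 lungs here. The difference was 0.70 (SE 0.21, adjusted p = 0.321, limma), a fold of 1.63. *Slit3*, a slit that promotes vessel growth, averaged 7.36 ± 0.19 in hypoxia and 6.88 ± 0.38 in normoxia, a difference of 0.48 (SE 0.20), with normoxic mouse H, at 7.42, inside the hypoxic range, and was called in 3 of 8 fits with a mouse left out. *Slit1*, which is mainly neuronal, lay under the median level of all probe sets and differed by 0.14 (SE 0.17).

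Of the 4 Robo receptors, *Robo2* and *Robo4* were called higher, beside 5.34% of all probe sets. *Robo2*, a slit receptor of mesenchyme and nerve, had 6.04, 6.37, 6.44 and 6.74 in hypoxia and 5.18, 6.28, 5.44 and 5.77 in normoxia. As for *Slit2*, mouse D was the highest hypoxic lung, mouse F the lowest normoxic lung and mouse G the highest normoxic lung, which here exceeded hypoxic mouse A. The difference was 0.73 (SE 0.24, adjusted p = 0.397, limma). *Robo4*, the endothelial member of the family, had 6.75, 6.65, 6.95 and 6.45 in hypoxia and 6.26, 6.31, 6.51 and 6.06 in normoxia. Only mouse H, the highest normoxic lung, reached above mouse D, the lowest hypoxic lung. The difference was 0.41 (SE 0.16), with a 95% confidence interval of 0.06 to 0.77, and the call was lost without normoxic mouse F or I or hypoxic mouse A or C. *Robo1*, expressed in many lung cells, differed by -0.08 (SE 0.15), with a 95% confidence interval of -0.40 to 0.25, and *Robo3* lay under the median level.

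*Robo4* is an endothelial gene, and the endothelial markers beside it were uneven. Of the 10 general endothelial markers, 3 were called higher and 0 lower, beside 5.34% and 3.15% of all probe sets, with a median difference of 0.20. The called genes were *Tie1*, *Emcn* and *Esam*, with differences of 0.84, 0.67 and 0.47, all larger than that of *Robo4*. Lower means that were not called belonged to *Erg*, *Tek* and *Kdr*, at -0.46, -0.34 and -0.28. *Cdh5*, which encodes VE-cadherin, averaged 10.84 in hypoxia and 10.68 in normoxia, and *Pecam1* averaged 10.29 in hypoxia and 10.22 in normoxia. The 10 capillary endothelial markers had 1 called higher and 2 lower, with a median difference of -0.08. Their mean level ran from 7.52 to 7.80 in hypoxia and from 7.78 to 7.96 in normoxia. The higher one was *Apln*, at 0.41, and the lower pair was *Ednrb* and *Plvap*, at -1.06 and -0.95. The part of endothelial content in the *Robo4* difference was not tested.

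Among the 8 ephrins none was called higher in hypoxia and *Efnb2* was called lower. *Efnb2*, which encodes the ephrin of arterial endothelium, had 7.63, 7.11, 7.27 and 7.52 in hypoxia and 7.57, 7.67, 8.33 and 8.56 in normoxia. Normoxic mice H and I lay above all other lungs, mouse G only just above the highest hypoxic lung, and mouse F inside the hypoxic range. The difference was -0.65 (SE 0.23, adjusted p = 0.446, limma), a fold of 0.635, and the 95% confidence interval ran from -1.17 to -0.14. The call was lost without normoxic mouse I, the highest lung, and without hypoxic mouse B, the lowest. Over the 8 fits with a mouse left out, the difference ranged from -0.81 to -0.48. *Efnb1* and *Efnb3* had higher means in hypoxia, by 0.20 each, and were not called.

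Of the A-type ephrins, which are held in the membrane by a lipid anchor, *Efna1* had the smallest p. It had 8.01, 7.55, 7.89 and 7.17 in hypoxia and 7.98, 8.07, 7.86 and 8.09 in normoxia, a difference of -0.35 (SE 0.19). The normoxic lungs lay close together, and hypoxic mice A and C lay among them. Without hypoxic mouse D, the lowest lung, the difference was -0.19, and without mouse A it was -0.47. *Efna3* spread most widely, with normoxic mouse F at 5.59, hypoxic lungs at 3.54 to 3.92 and the other normoxic lungs at 3.46 to 4.13.

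Eph receptors are the tyrosine kinases that bind the ephrins. Of the 14, 3 (21.4%) were higher and 1 (7.1%) lower, beside 5.34% and 3.15% of all probe sets. *Epha4*, which binds ephrins of both classes, had 5.88, 5.50, 5.74 and 5.44 in hypoxia and 4.76, 5.15, 5.39 and 4.93 in normoxia. The groups did not overlap, but only 0.04 parted hypoxic mouse D from normoxic mouse H. The difference was 0.58 (SE 0.18, adjusted p = 0.340, limma). *Epha2*, an epithelial and endothelial receptor of ephrin-A1, averaged 7.62 ± 0.29 in hypoxia and 6.98 ± 0.45 in normoxia, a difference of 0.63 (SE 0.23). The call was lost without hypoxic mouse C and without normoxic mouse I, where the difference was 0.41.

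*Ephb4*, the venous receptor of ephrin-B2, had 7.90, 7.75, 7.70 and 7.29 in hypoxia and 7.35, 7.33, 7.19 and 6.88 in normoxia. Mice A, B and C lay above all normoxic lungs and mouse D among them. The difference was 0.47 (SE 0.18, adjusted p = 0.476, limma), so that the venous receptor and the arterial ephrin differed in opposite directions. The *Ephb4* call was lost without normoxic mouse I and without hypoxic mouse A or B. *Ephb3*, another receptor of ephrin-Bs, differed by 0.47 (SE 0.24) with a 95% confidence interval of -0.06 to 0.99. *Epha6* was lower in hypoxia in all 4 lungs, at 2.23 to 2.39 against 2.60 to 2.79 in normoxia, but these values lay far under the median level of 4.18, where an array reports mostly background.

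The arterial markers differed in both directions. Of the 10 arterial endothelial markers, 4 were called higher and 2 lower, beside 5.34% and 3.15% of all probe sets. Their median difference was 0.01, and their mean level ranged from 5.83 to 6.05 in hypoxia and from 5.81 to 5.97 in normoxia. The lower pair was *Dll4*, a Notch ligand, at 6.68 in hypoxia and 7.28 in normoxia, and *Hey1*, a Notch target, at 6.03 in hypoxia and 6.65 in normoxia. The 4 called higher were *Cxcl12*, *Sox17*, *Fbln2* and *Gja4*, with differences of 0.97, 0.69, 0.57 and 0.46. *Cxcl12* averaged 8.78 in hypoxia and 7.81 in normoxia, without overlap, and *Gja4*, which encodes an arterial connexin, 8.01 in hypoxia and 7.55 in normoxia. Of the 8 venous markers 1 was called higher and 1 lower. What these lists contribute to the *Efnb2* and *Ephb4* differences was not tested.

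Netrins are laminin-like ligands, most of them secreted, and none of the 6 was called in either direction. *Ntn1* averaged 8.37 ± 0.19 in hypoxia and 8.07 ± 0.06 in normoxia, a difference of 0.29 (SE 0.15) with a 95% confidence interval of -0.03 to 0.62. Hypoxic mice B, C and D lay above all normoxic lungs, while mouse A, at 8.08, lay among them. *Ntng1*, which encodes a membrane-anchored relative, had the smallest p of the family and lay under the median level, at 3.30 ± 0.14 in hypoxia and 3.59 ± 0.13 in normoxia.

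Of the 4 Unc5 receptors, *Unc5b* was higher, with the smallest p of all 69 genes. *Unc5b*, the netrin receptor of endothelial tip cells and arteries, had 5.80, 5.96, 5.80 and 5.50 in hypoxia and 5.20, 5.10, 5.13 and 4.68 in normoxia. The lowest hypoxic lung, mouse D, stood 0.30 above the highest normoxic lung, mouse F. The difference was 0.74 (SE 0.17, adjusted p = 0.169, limma), a fold of 1.67, with a 95% confidence interval of 0.37 to 1.11. *Unc5a*, *Unc5c* and *Unc5d* differed by 0.15, 0.18 and -0.02 and overlapped.

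*Unc50*, which is taken only for the spelling of its symbol and encodes a Golgi protein, was lower in hypoxia. It had 6.14, 6.02, 6.17 and 6.11 in hypoxia and 6.54, 6.47, 6.72 and 7.05 in normoxia, a difference of -0.59 (SE 0.16, adjusted p = 0.274, limma). Without it, 16 of 68 guidance genes (23.5%) were higher and 2 (2.9%) lower, beside 5.34% and 3.15% of all probe sets.

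Genes that work beside these families were read from a list of 54 co-receptors, further ligands and signalling genes. Of these, 9 (16.7%) were higher and 1 (1.9%) lower in hypoxia at an unadjusted p under 0.05, beside 5.34% and 3.15% of all probe sets. At or above the median level lay 44 of the 54, and of all probe sets at that level 8.1% were higher and 4.0% lower. The median difference was 0.15, against -0.0049 over all probe sets, and none of the 54 passed after adjustment. Among the 15 co-receptors *Flrt3*, which binds Unc5 and Robo receptors, averaged 6.62 ± 0.24 in hypoxia and 5.96 ± 0.51 in normoxia, a difference of 0.67 (SE 0.24). *Nrp2*, the neuropilin that binds Sema3f, averaged 6.69 ± 0.28 in hypoxia and 6.21 ± 0.24 in normoxia, a difference of 0.48 (SE 0.18), whereas *Nrp1*, the neuropilin of Sema3a, averaged 8.54 ± 0.33 in hypoxia and 8.53 ± 0.32 in normoxia. The netrin receptor *Dcc* stood at 2.58 in hypoxia and 2.43 in normoxia, far under the median level, and *Neo1*, which encodes neogenin, differed by -0.08 (SE 0.28).

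Of the 36 signalling genes 7 (19.4%) were higher and 1 (2.8%) lower, beside the same 5.34% and 3.15% of all probe sets. At or above the median level, where these shares were 8.1% and 4.0%, lay 32 of the 36. *Fes*, a tyrosine kinase that plexin A receptors engage, had 5.37, 5.71, 5.51 and 5.34 in hypoxia and 5.12, 5.07, 4.94 and 4.87 in normoxia, with no overlap and a difference of 0.48 (SE 0.15, adjusted p = 0.335, limma). *Mical3*, of the family of oxidoreductases that take actin filaments apart below plexins, differed by 0.52 (SE 0.17) without overlap. *Rras*, the GTPase that plexins switch off, averaged 9.96 ± 0.11 in hypoxia and 9.49 ± 0.23 in normoxia, also without overlap. The lower gene was *Vav3*, an exchange factor that Eph receptors recruit, at 4.03 ± 0.27 in hypoxia and 4.52 ± 0.24 in normoxia.

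Among the genes that were higher in hypoxia, the same mice were often lowest in their group. Mouse D was the lowest hypoxic lung in 12 of the 16 genes, whereas it was lowest in 27.5% of all probe sets. Mouse I was the lowest normoxic lung in 11 of the 16, against 25.8% of all probe sets, and mouse C the highest hypoxic lung in 8, against 26.8%. *Slit2* and *Robo2* differed from this in that mouse D was the highest hypoxic lung. Mouse A was the lowest hypoxic lung in *Sema5a* and mouse B in *Slit3*. The highest normoxic lung varied: it was mouse F in 7 genes, mouse G in 6 and mouse H in 3. In the median over all 69 genes, hypoxic mice A, B, C and D differed from the gene's mean over all lungs by 0.12, 0.12, 0.23 and -0.07, and normoxic mice F, G, H and I by -0.06, -0.03, -0.13 and -0.18. Over the 16 genes, which were selected for a higher hypoxic mean, the medians were 0.40, 0.33, 0.43 and 0.05 in hypoxia and -0.21, -0.10, -0.22 and -0.56 in normoxia.

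**Figure D3:**
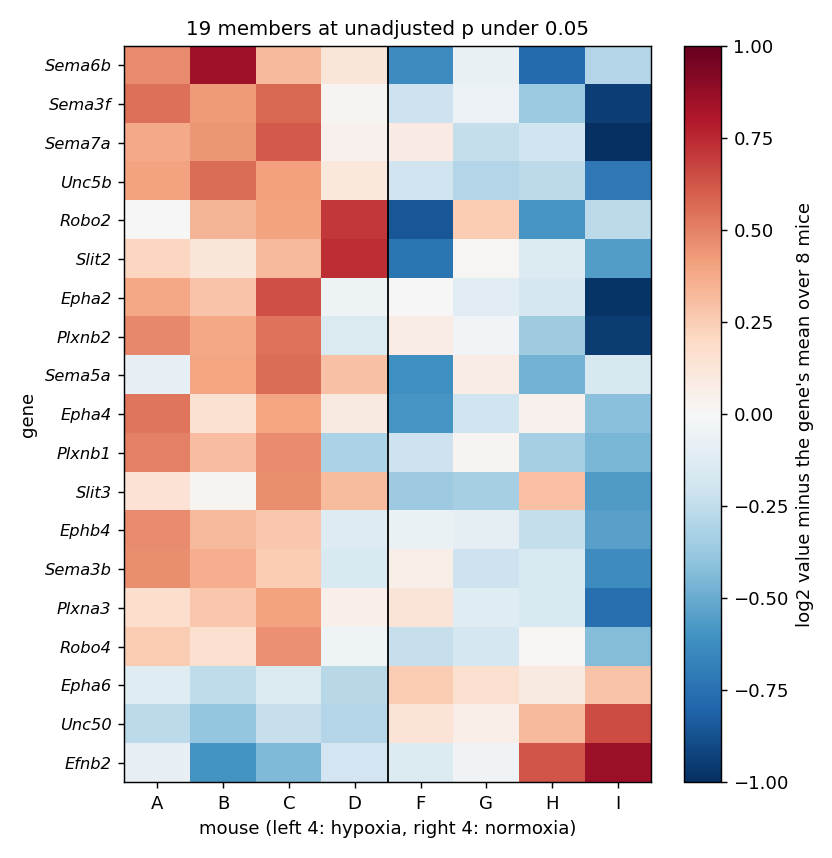
Log2 value minus the gene's mean over 8 mice (colour, red above and blue below, limits at 1 and -1) for the 19 genes at an unadjusted p under 0.05 (y axis, sorted by difference) in each mouse (x axis, hypoxia left of the line, normoxia right). Mouse D is the lowest hypoxic lung in 12 of the upper 16 genes but the highest in *Slit2* and *Robo2*, and mouse I is the lowest normoxic lung in 11 of the 16.

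Cell markers differed between the same lobes. Of all probe sets, 5.34% were called higher and 3.15% lower. The 8 pericyte markers had 5 higher and 0 lower, at a mean level of 6.03 to 6.70 in hypoxia and 5.67 to 6.19 in normoxia. In this mean level too, mouse D was the lowest hypoxic and mouse I the lowest normoxic lung. The same held for the smooth muscle, fibroblast, Schwann cell and B cell markers, and for no other list. All 10 markers of dividing cells were higher, at 5.11 to 6.27 in hypoxia and 3.83 to 4.60 in normoxia. Of 5 lymphatic endothelial markers 4 were higher and 1 lower. Of 6 B cell markers 5 were lower, at a mean level of 5.19 to 5.59 in hypoxia and 5.70 to 7.20 in normoxia. The 8 adipocyte markers were all lower, at 5.37 to 5.96 in hypoxia and 6.13 to 7.98 in normoxia, as were 7 of 8 heart muscle markers, at 6.17 to 6.33 in hypoxia and 6.76 to 7.51 in normoxia. Skeletal muscle markers lay at 3.68 to 4.72 in hypoxia and at 7.10, 7.07, 3.68 and 4.32 in normoxic mice F, G, H and I, and without mice F and G 18 guidance genes were higher and 5 lower, where 7.32% of all probe sets were higher and 5.76% lower. What these cells contribute to the guidance genes was not tested.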

How the data were processed

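RNA of 1 lung lobe per mouse was measured on Affymetrix Mouse Gene 2.0 ST arrays. The authors deposited log2 intensities, made with RMA (submitters' processing notes, no version) and quantile normalization, with a custom chip definition of 1 probe set per Entrez gene. Background correction, normalization set and genome build: not given in the sources used here. Array medians lay between 4.17 and 4.20. Symbols came from the array annotation for 24705 probe sets and from Entrez IDs for 564 more, and 159 had none. Hypoxia minus normoxia was tested with limma (3.58.1, R 4.3.3; lmFit and eBayes, no covariate) over all 25428 probe sets, with Benjamini-Hochberg adjustment and a threshold of 0.05, after a check on simulated data. The number of arrays limits the precision. The mice are separate animals and their letters do not pair them.

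Genes named in full were *Sema3c*, *Plxnd1*, *Efnb2*, *Robo4*, up to 15 members per direction with the smallest p, the first of each family, *Sema3e*, *Slit2*, *Slit3*, *Ephb4* and 4 of the partner list. Other genes were named after their values were seen. The members and lists were chosen with earlier results of these data known. Levels were set against the median level of all probe sets and were otherwise not compared between probe sets. The alternatives were other normalizations, variance models, filters and memberships, and leaving out mice. Promoter sequences are RefSeq's on GRCm38.p6. Tables and plots were made with Python 3.11.15, pandas 2.3.3, numpy 2.4.6 and matplotlib 3.10.9.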

Additional observations from a re-analysis of the deposited data

How the results depend on the processing

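The 27 genes named by rule kept the sign of their difference in all 430 values from the 16 alternatives that refit single genes (*Epha6* and *Ntng1* drop out without dim probe sets), and none passed after adjustment over all probe sets (smallest adjusted p = 0.0913, limma with array weights). Part of this was fixed in advance. The unmoderated test, the intensity trend with robust variance and both filters on probe sets leave each difference as it was, so its sign could not turn there. Most of the 27 genes were also picked for a small p on the same 8 arrays, which makes a stable sign likely. The count of members past the adjusted threshold was 0 in these 16 and under both changes of membership. With each mouse left out in turn, the count of members higher in hypoxia ran from 9 to 20 (3.37% to 6.68% of all probe sets in the same fits) and that of members wholly above normoxia from 5 to 20 (3.25% to 6.98%). Without normoxic mice F and G together, 5 members were lower (5.76% of all probe sets), 21 lay wholly above (10.9%) and 6 wholly below normoxia (11.1%). The count wholly below was 1 without dim probe sets and 1 without netrins and Unc5, where the members counted there are left out by construction. Leaving out Unc50 was added after seeing the data. No paired analysis was possible because the mice carry letters that name them and do not pair the groups. The 4 arrays per group and the low signal of dim probe sets limit the precision.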
